A study of Drosophila melanogaster with 12 samples.

Results

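Glycogen is the branched glucose polymer that animals build up when sugar is plentiful and draw on when it is not. In insects it is stored mainly in fat body and muscle. Glycogen synthase adds glucose units to the chains from UDP-glucose, and a branching enzyme turns cut stretches of chain into side branches. Glycogen phosphorylase releases glucose 1-phosphate from the chain ends, and phosphoglucomutase interconverts glucose 1-phosphate with glucose 6-phosphate, so it serves both directions.

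The 4 genes described here encode these enzymes in Drosophila melanogaster: Glys (glycogen synthase, also written GlyS), AGBE (glycogen branching enzyme), Glyp (glycogen phosphorylase, also GlyP) and Pgm1 (phosphoglucomutase). They were taken by symbol or synonym out of 11982 genes with a probe set of their own on the array. Each had 1 probe set, 1630044_s_at for Glys, 1634374_at for AGBE, 1631620_at for Glyp and 1633803_at for Pgm1, and all 4 were bright enough to be among the 8387 genes tested.

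RNA came from whole male larvae of the strain Canton-S, with 3 biological replicates in each of 4 groups and 1 Affymetrix array per replicate. Mid-L3 larvae were still feeding. They had been raised on control food with 0.15 M sucrose, were moved early in the last larval instar to fresh control food or to high sugar food with 1 M sucrose, and were harvested 12 h later. Wandering larvae had stopped eating and were harvested before they formed pupae, after a life on control food or on high sugar food since hatching. High sugar food therefore stands for a short exposure in mid-L3 larvae and for a lifelong one in wandering larvae, so a comparison of the stages on this food also compares the lengths of exposure. Levels below are the deposited intensities. Changes are differences of log2 values after quantile normalization, with a constant of 12.8 added to the intensity before the logarithm, which understates the change of dim genes.

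The array medians were 63.2 to 83.8 and the highest value was 15489, so each member lay above the median of its array in all 12 arrays and below the top of the scale. As a check of the labels, 7 tested testis markers had a summed intensity between 1296 and 1573 in the mid-L3 control arrays and between 9404 and 11533 in the wandering control arrays. The summed salivary glue genes (6 tested) spanned 141 to 898 in the former and 53029 to 55110 in the latter. Of the 7 testis markers, limma called 5 higher and 1 lower in wandering larvae on control food. The lower one was sa (-0.31, adjusted p = 0.024), and topi gave -0.04 (adjusted p = 0.788). In whole larvae, fewer cells of a type and less RNA per cell cannot be told apart.

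The glycogen genes were described first by their level in each array. Glys measured 2950, 2992 and 3120 in the 3 mid-L3 arrays on control food and 3317, 3426 and 3482 in those on high sugar food. In wandering larvae it measured 610, 543 and 508 on control food and 620, 438 and 518 on high sugar food. All mid-L3 arrays thus lay far above all wandering arrays, the mid-L3 diets lay apart, and the wandering diets overlapped.

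AGBE measured 2886, 3077 and 2935 in mid-L3 larvae on control food and 5221, 5693 and 5578 on high sugar food. After the onset of wandering it was at 186, 201 and 199 on control food and at 261, 193 and 260 on high sugar food. It had the widest gap between the mid-L3 diets among these genes, and in wandering larvae 1 high sugar array fell among the control arrays.

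Glyp measured 6810, 6143 and 6168 in mid-L3 larvae on control food and 8101, 8412 and 8110 on high sugar food. The wandering arrays gave 1049, 513 and 329 on control food and 792, 524 and 783 on high sugar food. The wandering control arrays spanned more than the high sugar arrays did, with replicate 1 the highest and replicate 3 the lowest of all 6.

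Pgm1 measured 4144, 3749 and 3877 in mid-L3 larvae on control food and 4498, 4964 and 4595 on high sugar food. The wandering arrays had it at 1265, 782 and 662 on control food and 1167, 823 and 1213 on high sugar food. Control replicate 1 was again the highest of the wandering arrays, and the diets overlapped.

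**Figure D1:**
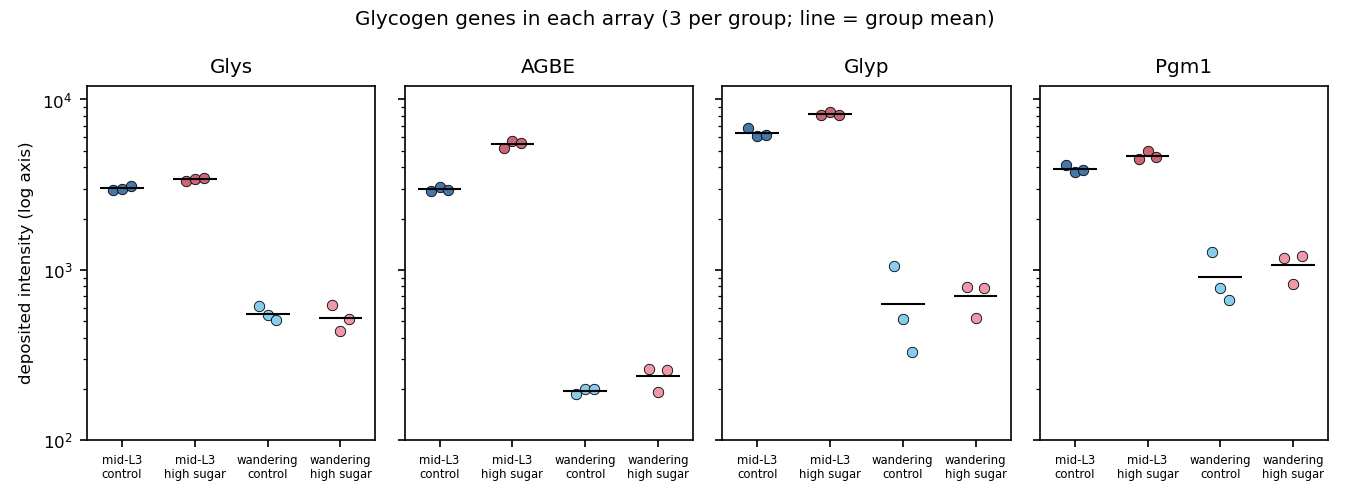
Deposited intensity (log axis) of Glys, AGBE, Glyp and Pgm1 in each of the 12 arrays, by stage and diet; each point is 1 array and each line a group mean. The 6 mid-L3 arrays lie above the 6 wandering arrays for each gene, and within mid-L3 larvae the high sugar arrays lie above the control arrays.

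The order of the group means was the same for AGBE, Glyp and Pgm1: mid-L3 on high sugar food, mid-L3 on control food, wandering on high sugar food and wandering on control food. Glys had the same order among mid-L3 larvae, while its wandering means of 554 ± 51.7 on control food and 525 ± 91.0 on high sugar food (SD, n = 3) were the other way round. Neighbours of the same stage in this order were compared by the limma fit to all 12 arrays. Mid-L3 larvae on control food were not compared with wandering larvae on high sugar food. The wandering groups did not pass that test for any of the 4 genes, nor did the mid-L3 diets for Glys, Glyp and Pgm1, although the arrays of the mid-L3 diets did not overlap.

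The comparison of stages asked how the transcripts differ between feeding larvae and larvae that have left the food. All 4 glycogen genes fell, on both foods. On control food AGBE went from 2966 ± 98.9 to 195 ± 7.94 (SD, n = 3), which left 6.57% of the mid-L3 intensity. Glyp went from 6374 ± 378 to 630 ± 374 and kept 9.89%. Glys kept 18.3%, and Pgm1, which went from 3923 ± 202 to 903 ± 319, kept 23.0%. The branching enzyme and the phosphorylase thus lost a larger share of their intensity than the synthase and the mutase did, as a description without a test between the genes.

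The fitted log2 changes on control food were -3.86 for AGBE (SE 0.11, adjusted p = 1.2e-11), -3.37 for Glyp (SE 0.31, adjusted p = 3.7e-07), -2.40 for Glys (SE 0.12, adjusted p = 1.3e-09) and -2.06 for Pgm1 (SE 0.19, adjusted p = 4.8e-07). Calls as common as these were the rule between the stages, since 39.8% of all tested genes passed as lower in wandering larvae on control food, and the groups lay apart downward for 41.6%. The size of the falls was less common. Of all tested genes, 1.5% had a lower change than AGBE, 2.36% a lower one than Glyp, 5.07% a lower one than Glys and 6.65% a lower one than Pgm1. The median change was -2.89 over the 4 members and -0.01 over all tested genes.

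On high sugar food the intensities of wandering larvae were 4.33% of those of mid-L3 larvae for AGBE, 8.52% for Glyp, 15.4% for Glys and 22.8% for Pgm1. The log2 changes were -4.48 (SE 0.11, adjusted p = 3.7e-12) for AGBE, -3.47 (SE 0.31, adjusted p = 3.0e-07) for Glyp, -2.71 (SE 0.12, adjusted p = 4.9e-10) for Glys and -2.00 (SE 0.19, adjusted p = 6.9e-07) for Pgm1. As lower, 40.9% of all tested genes passed in this comparison. The members again stood low among all genes, with 0.715% of genes below AGBE and 6.19% below Pgm1. All 4 calls held on both foods under every alternative fitted. The median of all tested genes, -0.01 on control food and -0.05 on high sugar food, was -0.12 and -0.11 with arrays centred on their medians and 0.18 and 0.17 in the values as deposited, which is small beside the members' changes.

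Muscle transcripts fell between the stages too. Of 8 tested markers of body wall muscle, 7 were lower in wandering larvae on control food and 7 on high sugar food, with medians of -2.20 and -2.23. They included Mlc2, a myosin light chain (-3.30 on control food, adjusted p = 1.7e-07), and sls, which encodes a giant elastic protein of the sarcomere (-3.25, adjusted p = 3.1e-10), whereas TpnC73F, a troponin C, gave 0.04 (adjusted p = 0.562). On control food these markers together reached 51970 to 54147 per mid-L3 array and 15799 to 23457 per wandering array. On high sugar food they reached 50823 to 51754 and 14868 to 20856. No muscle or fat body marker was at 0 in any array.

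Of 5 tested fat body markers, 2 were higher and 2 lower in wandering larvae on control food, and their summed intensity was 32948 to 36645 per mid-L3 array and 39014 to 42905 per wandering array. Fbp1, a receptor for storage proteins, rose by 7.12 (adjusted p = 3.1e-13), while Lsp2, a storage protein, gave 0.08 (adjusted p = 0.224). On high sugar food 3 were higher and 1 lower, and the sum was 25950 to 32280 in mid-L3 and 40174 to 41969 in wandering larvae. Of 7 midgut markers, 5 were lower and 2 higher in wandering larvae on control food, and their sum was 29225 to 31615 in mid-L3 and 19347 to 24553 in wandering larvae. The part of muscle, fat body, midgut, testis or salivary gland RNA in the change of the glycogen genes was not tested.

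The diet comparison in mid-L3 larvae addressed the effect of a short exposure, 12 h of high sugar feeding. AGBE rose 1.85-fold in mean intensity, with 2966 ± 98.9 on control and 5497 ± 246 on high sugar food (SD, n = 3). Its log2 change of 0.85 had a 95% confidence interval of 0.62 to 1.08 (adjusted p = 1.5e-04). It was the 1 member of 4 that passed, where 7.52% of all tested genes passed as higher. Of all tested genes, 98.1% had a lower change than AGBE. This call held under all 24 alternatives, with log2 changes of 0.83 to 0.90 and adjusted p values of 1.1e-05 to 0.00239.

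Glys, Glyp and Pgm1 did not pass with all 12 arrays in the fit. Glyp had means of 6374 ± 378 and 8208 ± 177 (SD, n = 3), 1.29-fold apart, with a log2 change of 0.41 (95% interval -0.25 to 1.08, adjusted p = 0.427). Pgm1 gave 0.25 (interval -0.17 to 0.67, adjusted p = 0.451), and Glys gave 0.20 (interval -0.06 to 0.46, adjusted p = 0.316). Even so, the high sugar arrays lay above the control arrays for each of the 4 members, as they did for 21.5% of all tested genes.

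These 3 genes passed when the 6 mid-L3 arrays were fitted alone, with the same log2 changes and narrower intervals. Glyp then had an interval of 0.31 to 0.52 (adjusted p = 4.0e-04), Pgm1 of 0.13 to 0.37 (adjusted p = 0.0109) and Glys of 0.09 to 0.30 (adjusted p = 0.0175), and 11.7% of all tested genes passed as higher in that fit. The difference between these fits is in the spread that they use. The SD of log2 values for Glyp was 0.06 in mid-L3 control and 0.04 in mid-L3 high sugar arrays, but 0.85 and 0.33 in the wandering ones, and the fit of 12 arrays shares 1 spread per gene over all groups. An alternative added after the data were seen kept all 12 arrays and took as a covariate each array's position between the stages in its other transcripts, which is described with the wandering arrays. It gave larger diet changes in mid-L3 larvae, which passed, at 1.21 for Glyp (adjusted p = 0.0071), 0.74 for Pgm1 (adjusted p = 0.00987) and 0.45 for Glys (adjusted p = 0.0437), while AGBE gave 0.90 (adjusted p = 0.00239). However, the position itself differed by diet in mid-L3 larvae, at -0.0094 to 0.0084 on control and 0.049 to 0.085 on high sugar food. The same slope on position was fitted to all groups, wandering arrays included. These larger changes therefore depend on that slope and are no separate measure of the diet change.

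**Figure D2:**
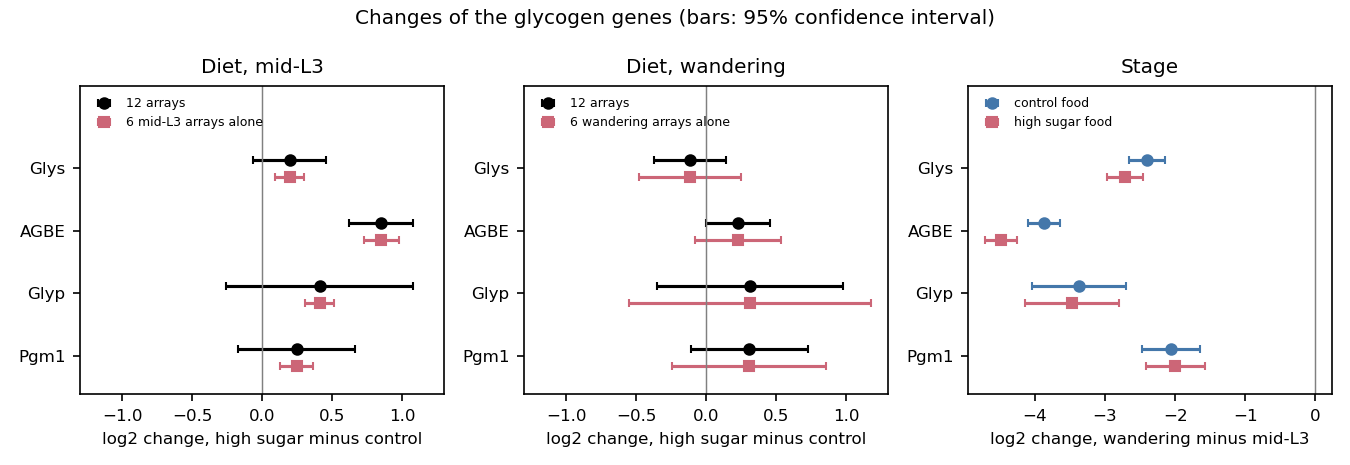
Log2 changes of the 4 genes with 95% confidence intervals, for diet in mid-L3 larvae, diet in wandering larvae and stage on each food. In mid-L3 larvae the interval of AGBE excludes 0 in both fits, and those of Glys, Glyp and Pgm1 exclude 0 with the 6 mid-L3 arrays alone; in wandering larvae every interval includes 0.

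With this diet change in mid-L3 larvae, none of the 8 muscle markers passed in limma (median -0.04). Of the 5 fat body markers, 2 were lower and none higher (median -0.39), and their summed intensity was lower on high sugar food in the ranges given above. The midgut sum was higher, at 38732 to 42084 on high sugar food against the 29225 to 31615 on control food. Of its 7 markers 2 rose, the trypsin genes alphaTry by 1.93 (adjusted p = 1.2e-08) and betaTry by 0.49 (adjusted p = 0.00983), and LManI, an alpha-mannosidase gene, fell by 0.82 (adjusted p = 0.00234). The testis sum was higher too, at 1792 to 1965 against 1296 to 1573, with 2 of 7 markers higher, mia and Mst87F. The salivary glue genes summed to 184 to 4069 on high sugar food against 141 to 898 on control food. None of the 6 passed (median 0.37). The part of fat body, midgut, testis or salivary gland RNA in the diet change was not tested.

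The diet comparison in wandering larvae asked what a life on high sugar food changed. None of the 4 glycogen genes passed in limma with all 12 arrays or with the 6 wandering arrays alone, and none had an unadjusted p under 0.05 in either fit. Over all tested genes, 6.38% passed in the former and 2.60% in the latter. The log2 changes were -0.11 for Glys (95% interval -0.37 to 0.14, adjusted p = 0.616), 0.23 for AGBE (interval -0.00034 to 0.46, adjusted p = 0.222), 0.32 for Glyp (interval -0.35 to 0.98, adjusted p = 0.589) and 0.31 for Pgm1 (interval -0.11 to 0.73, adjusted p = 0.37). A rise of Glyp close to 2-fold lies within its interval, so a change of that size is not excluded here. For Glys and AGBE the intervals end below 0.5.

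Single wandering arrays decided the values of Glyp and Pgm1 and the call of AGBE. Without control replicate 1 the change of Glyp was 0.78 (adjusted p = 0.03) and that of Pgm1 0.58 (adjusted p = 0.0248), both then past the threshold. Without control replicate 3 that of Glyp was -0.06 (adjusted p = 0.948) and that of Pgm1 0.13 (adjusted p = 0.805). Without high sugar replicate 2, AGBE passed with 0.35 (adjusted p = 0.0122). Glys gave -0.27 to -0.005 with 1 array left out at a time and passed under none of 24 alternatives.

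The spread of Glyp and Pgm1 among wandering larvae on control food was wide for this data set. The SD of log2 values was 0.85 for Glyp and 0.48 for Pgm1, against a median of 0.13 over all tested genes, and it was smaller than that of Glyp in 99.4% and than that of Pgm1 in 97.6% of genes. Glys, with 0.13, was at the median, and AGBE, with 0.06, was below it. In mid-L3 larvae on control food all 4 members had SDs of 0.03 to 0.07, below the median of 0.11.

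The wandering arrays also differed in how far they lay from mid-L3 larvae in all other transcripts. A position was computed for each array from 8332 tested genes, without the glycogen genes, the other listed genes of glycogen metabolism and the marker genes, on the line from the mean of mid-L3 larvae (0) to the mean of wandering larvae (1) on control food. Wandering control replicates 1, 2 and 3 lay at 0.945, 1.02 and 1.03, and high sugar replicates 1, 2 and 3 at 0.954, 1.02 and 0.983.

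The order of the 6 wandering arrays by this position was the reverse of their order by Glyp intensity, from control replicate 1, which lay nearest to mid-L3 larvae and had 1049, to control replicate 3, which lay farthest and had 329. Pgm1 kept the same split, with the arrays at 0.945, 0.954 and 0.983 at 1265, 1167 and 1213, and those at 1.02 or above at 662 to 823. AGBE departed from it in control replicate 1, which gave the lowest AGBE value, 186. Its other arrays kept the split, with 261 and 260 at 0.954 and 0.983 and 193 to 201 at 1.02 or above. Glys did not keep it, with 518 at 0.983 and 543 in control replicate 2 at 1.02. These orders are descriptions of 6 arrays that share their position scale with the stage comparison.

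Among the wandering arrays the muscle marker sum was also highest in control replicate 1, at 23457, and lowest, at 14868, in high sugar replicate 2. With the position as a covariate, the diet change in wandering larvae was 0.13 for Glyp (adjusted p = 0.737), 0.19 for Pgm1 (adjusted p = 0.357), 0.22 for AGBE (adjusted p = 0.269) and -0.17 for Glys (adjusted p = 0.299).

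**Figure D3:**
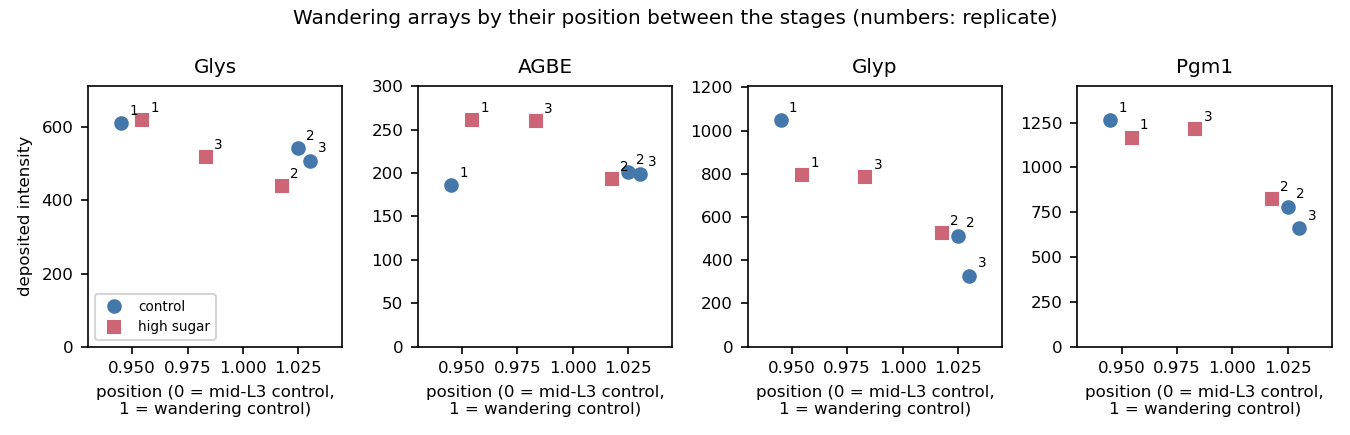
Deposited intensity of each glycogen gene in the 6 wandering arrays against the array's position between mid-L3 (0) and wandering (1) larvae on control food; circles are control and squares high sugar arrays, numbered by replicate. Glyp runs from 1049 at position 0.945 down to 329 at 1.03, while AGBE stays between 186 and 261.

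The difference of the diet changes, wandering minus mid-L3, set lifelong feeding in wandering larvae against short feeding in mid-L3 larvae. Stage and length of exposure cannot be told apart in it. It passed for AGBE, with -0.62 on the log2 scale (SE 0.15, 95% interval -0.95 to -0.30, adjusted p = 0.0227), which compares 1.22-fold in mean intensity in wandering larvae with 1.85-fold in mid-L3 larvae. Of all tested genes 7.75% passed in either direction. The AGBE call ended without wandering control replicate 3 (adjusted p = 0.056), mid-L3 control replicate 1 (0.0587) or 3 (0.0621), or mid-L3 high sugar replicate 2 (0.0575) or 3 (0.0637), in a range of 0.00722 to 0.0637 over 22 alternatives. The estimate itself stayed between -0.70 and -0.50.

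The same difference was -0.31 for Glys (interval -0.68 to 0.05, adjusted p = 0.313), -0.10 for Glyp (interval -1.04 to 0.85, adjusted p = 0.926) and 0.06 for Pgm1 (interval -0.53 to 0.65, adjusted p = 0.924). A difference in the diet changes of these 3 genes was therefore not detected at this spread, and the intervals do not exclude one. The diet and stage comparisons share arrays, so their changes are not independent of each other.

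A list of 23 further genes of glycogen metabolism and its control was looked up by symbol. Of these, 19 had a probe set of their own and 17 were tested. Glycogenin, sgg, Pka-C1 and CkIIalpha were not analysed here, and UGP and Akh were too dim to test. In mid-L3 larvae 3 of the 17 rose with high sugar food and 2 fell, beside 7.52% of all tested genes that rose and 6.55% that fell. Gbs-70E, a glycogen-targeting subunit of protein phosphatase 1, which brings the phosphatase to glycogen, had 1235 ± 83.6 on control and 2055 ± 158 on high sugar food (SD, n = 3), and rose by 0.71 (adjusted p = 0.00667), a call that just ended with the position between the stages as a covariate (adjusted p = 0.0503). Its relative Gbs-76A gave -0.08 (adjusted p = 0.802). The other genes that rose were the hexokinase gene Hex-A and AkhR, the receptor of the adipokinetic hormone that mobilizes stores.

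The genes that fell in mid-L3 larvae were Hex-C, another hexokinase gene, and Pgm2a, which encodes a relative of Pgm1. Pgm2a went from 1068 ± 49.8 to 610 ± 16.1 (SD, n = 3). Its change was -0.68 (adjusted p = 0.00776), and the dimmer probe set of the gene gave -0.67 (adjusted p = 0.0346). Pgm1 and Pgm2a thus had estimates of opposite sign under the same diet, of which that of Pgm2a passed. Pgi, the isomerase that leads from glucose 6-phosphate into glycolysis, gave 0.32 (adjusted p = 0.202), and the catalytic phosphatase subunit genes Pp1alpha-96A, Pp1-87B, Pp1-13C and flw gave -0.16 to 0.09, none past the threshold.

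In wandering larvae 1 of the 17 rose with high sugar food and 1 fell, where 3.58% of all tested genes rose and 2.80% fell. AkhR rose by 1.36 (adjusted p = 5.1e-05) in its brightest probe set, from 112 ± 16.6 to 312 ± 48.7 (SD, n = 3), and by 0.66 (adjusted p = 0.0317) in the mean of its probe sets. PhKgamma, the catalytic subunit of the kinase that switches on glycogen phosphorylase, fell by 0.46 (adjusted p = 0.0108) in its brightest probe set, where control larvae had 318 ± 14.6 and high sugar larvae 234 ± 20.8 (SD, n = 3). The other probe sets of PhKgamma gave -0.21 (adjusted p = 0.308) and -0.03 (adjusted p = 0.903). The call ended with the mean of the probe sets (adjusted p = 0.167) and with the 6 wandering arrays alone (0.0983).

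**Figure D4:**
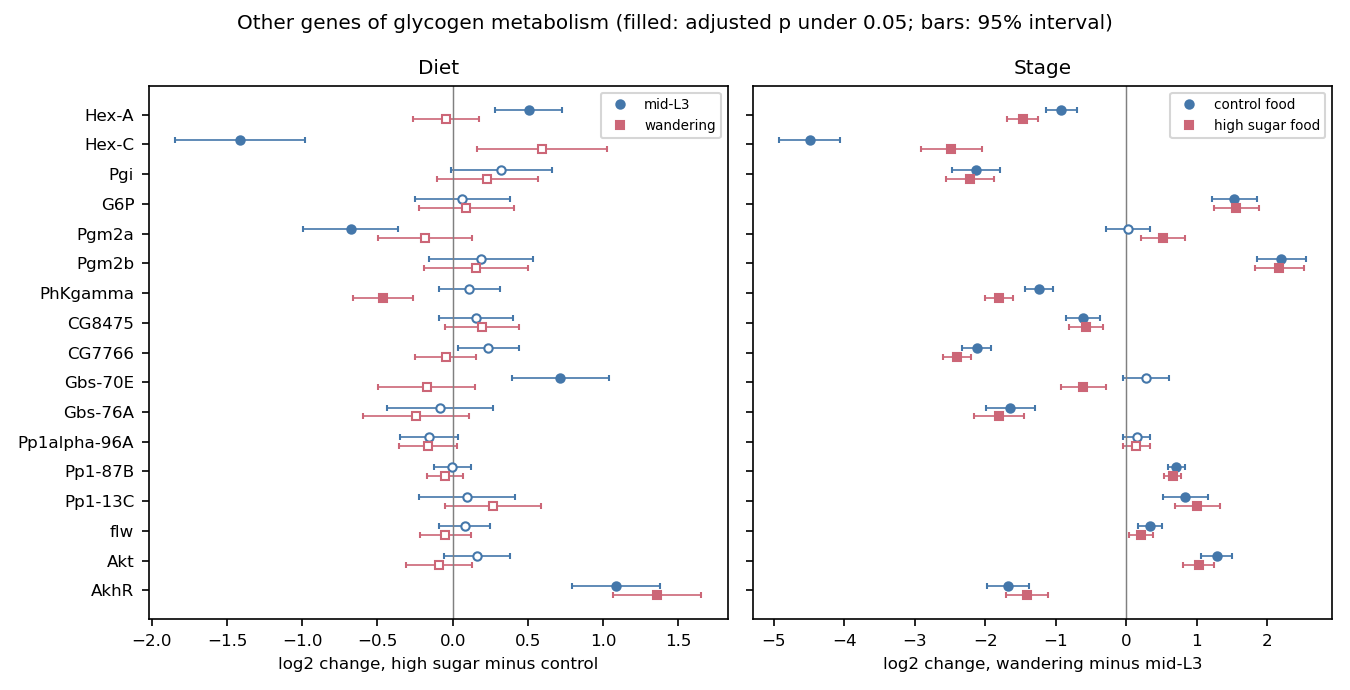
Log2 changes with 95% confidence intervals of the 17 other genes of glycogen metabolism, for diet in each stage and for stage on each food; filled symbols passed at an adjusted p of 0.05. Gbs-70E, Hex-A and AkhR rose and Hex-C and Pgm2a fell with diet in mid-L3 larvae, and with stage the genes moved both ways.

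Between the stages these genes moved both ways. On control food 6 of the 17 were higher and 8 lower in wandering larvae, and on high sugar food 7 were higher and 9 lower. All tested genes passed as higher in 39.4% and 38.2% of cases, and as lower in 39.8% and 40.9%. The 17 genes had a median change of 0.02 on the control diet and of -0.57 on the sugar-rich one. The middle gene was Pgm2a in the former case and CG8475 in the latter, and CG8475 itself gave -0.61 on the control diet. Of the 17, only Gbs-70E changed sign, from 0.28 with control food to -0.61 with high sugar food. The gap between the medians therefore does not measure a shift of the whole list. Pgi fell by 2.13 (adjusted p = 4.3e-08) on control food, close to the 2.06 of Pgm1, and PhKgamma fell by 1.23 (adjusted p = 5.9e-08). Gbs-76A fell by 1.64 (adjusted p = 8.3e-07) and AkhR fell by 1.68 (adjusted p = 1.2e-07), or by 0.73 (adjusted p = 0.00116) in the mean of its probe sets, which includes the dim one. CG7766 and CG8475, listed with PhKgamma as phosphorylase kinase genes, fell by 2.12 (adjusted p = 4.6e-10) and 0.61 (adjusted p = 2.4e-04). With diet neither passed in either stage, at 0.24 and 0.16 in mid-L3 larvae (adjusted p = 0.119 and 0.408) and at -0.05 and 0.20 in wandering larvae (adjusted p = 0.821 and 0.329).

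The genes that rose included Pgm2b, another relative of Pgm1, by 2.20 (adjusted p = 4.0e-08), from 31.6 ± 6.64 to 213 ± 23.2 (SD, n = 3). G6P, which encodes glucose-6-phosphatase, rose by 1.54 (adjusted p = 5.3e-07), and the kinase gene Akt, which acts in insulin signalling, by 1.28 (adjusted p = 8.4e-08). The 3 Pgm genes thus parted on control food, where Pgm1 fell, Pgm2b rose and Pgm2a gave 0.02 (adjusted p = 0.884).

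Over the 4 groups, means differed for each member (moderated F test in limma, adjusted p = 1.2e-12 to 1.2e-07). This was the condition set for a search for similar genes. The share of all tested genes that pass this F test is not given here. Between the stages on control food alone, 39.4% of all tested genes passed as higher and 39.8% as lower. The tested genes most like each member were then found by the root mean square difference of centred log2 values over the 12 arrays. ACC, which encodes acetyl-CoA carboxylase, was nearest to AGBE (0.19), with a change of 1.07 with diet in mid-L3 larvae and of 0.20 in wandering larvae, beside 0.85 and 0.23 for AGBE. CG9119 (0.24) and CG9399 (0.26) came next.

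Pgi was nearest to Pgm1 (0.12), followed by Alp5 (0.15), an alkaline phosphatase gene, and CG5023 (0.16). The nearest to Glys were TwdlG (0.09), a gene of the Tweedle cuticle protein family, c12.2 (0.17) and CG4115 (0.18). For Glyp they were CG31087 (0.24), D2hgdh (0.27) and sphe (0.27). Among the members, Glys and Pgm1 differed least from each other (0.35) and AGBE and Pgm1 most (1.12), so each member had at least 3 genes outside the set that were nearer to it than any other member was.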

How the data were processed

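The authors deposited a linear intensity for every probe set of the 12 arrays, which per the labels were hybridized with biotinylated cRNA from 2 ug of total RNA each. The sources used here do not give their software or normalization. Precision is limited by the number of arrays. The members and lists were chosen with earlier results of these data known.

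Of 18952 probe sets, 183 array controls were left out. Of the rest, 13647 had 1 gene symbol in the platform's table, 402 several and 4720 no entry, and 13544 symbols were updated through the Entrez identifier. The probe set with the highest mean stood for a gene, and genes whose mean lay below the 30th percentile were not tested. The constant of 12.8 is the 20th percentile of the intensities. After quantile normalization, limma 3.58.1 (R 4.3.3, residual df 8, prior df 4.41, intensity trend) was fitted to all 12 arrays with a mean per group. P values are from its moderated tests, adjusted by Benjamini-Hochberg over all 8387 genes of a comparison, with a threshold of 0.05. The fit was tried on simulated data for the diet comparison in wandering larvae only, with 1 spread per gene in all groups. Spreads that differ between groups were not simulated. Figures used matplotlib 3.10.9.

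The genes named are the members, the 23 listed genes, tissue markers and the 3 genes nearest to each member. Promoter sequences were not analysed here, and 1 further gene, beyond these 23, is not reported here. Pairing by replicate number was checked by correlating the deviations of arrays from their group means. For the stages on control food the 3 same-numbered pairs gave 0.12 to 0.18, and differently numbered pairs -0.18 to 0.07. Same-numbered pairs of the other groups held values of -0.26 to 0.26. Differently numbered wandering arrays on the 2 foods reached 0.39, so values of 0.12 to 0.18 are weak evidence of pairing. The stage changes in Results come from the fit without pairing. Fits with the replicate number as a block were run as alternatives.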

Additional observations from a re-analysis of the deposited data

Results flagged for a closer look

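For AGBE the diet change differed between the stages, by -0.62 on the log2 scale (wandering minus mid-L3, adjusted p = 0.0227), a call that ended without any of 5 single arrays, as given above. The same test of the difference passed for 4 of the 17 other genes of glycogen metabolism, beside 7.75% of all tested genes. With 1 array left out at a time, 1 to 4 of the 17 passed. Gbs-70E gave -0.89 (adjusted p = 0.022), with 0.71 in mid-L3 and -0.17 in wandering larvae, and the call ended without wandering high sugar replicate 1 (adjusted p = 0.0565), mid-L3 control replicate 3 (0.0621) or mid-L3 high sugar replicate 3 (0.0579). PhKgamma gave -0.57 (adjusted p = 0.0188), but -0.24 (adjusted p = 0.322) as the mean of its probe sets, and adjusted p = 0.0542 without mid-L3 control replicate 3. Hex-C gave 2.01 (adjusted p = 7.6e-04), with intensities of 12.5 ± 2.13 and 27.0 ± 6.82 (SD, n = 3) in wandering larvae that lay near the added constant. Hex-A gave -0.55 (adjusted p = 0.0364), and this call ended in the values as deposited (0.0641), with arrays centred on their medians (0.06) and without any of 8 single arrays (0.0634 to 0.0982).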

How the results depend on the processing

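The falls of all 4 members between the stages kept their call and direction under every alternative run, at -2.72 to -2.30 for Glys, -3.84 to -2.99 for Glyp, -4.14 to -3.54 for AGBE and -2.45 to -1.88 for Pgm1 on control food. With the 6 mid-L3 arrays alone, 4 members passed in place of 1 (Glys 0.20, Glyp 0.41 and Pgm1 0.25) among 1789 genes in place of 1180. With the position between the stages as a covariate, added after the data were seen, 4 members passed (Glys 0.45, Glyp 1.21, Pgm1 0.74) among 644 genes. That position itself differed between the mid-L3 diets, as given above. The 6 wandering arrays alone gave 218 genes in place of 535 and 1 of the listed genes in place of 2. Averaging the probe sets of each gene also left 1 listed gene.

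Leaving out 1 array at a time gave diet changes in wandering larvae of -0.06 to 0.78 for Glyp, 0.13 to 0.58 for Pgm1 and 0.15 to 0.35 for AGBE, with 0 to 2 members and 279 to 1418 genes called (279 without control replicate 3; 319, 1418 and 299 without high sugar replicates 1, 2 and 3). In mid-L3 larvae 715 to 1523 genes passed (715 without control replicate 3, 758 without high sugar replicate 3). The difference of the diet changes was -0.47 to 0.37 for Glyp, -0.12 to 0.34 for Pgm1 and -0.70 to -0.50 for AGBE, with 0 to 1 members, 1 to 4 listed genes and 432 to 1275 genes called, against 650 (432 without mid-L3 control replicate 3, 1275 without wandering high sugar replicate 2). The listed gene flw, at 0.21 between the stages on high sugar food, gave -0.01 with arrays centred on their medians. The causes were not tested.

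With the replicate number as a block, no call of a member changed. The difference of the AGBE diet changes was -0.62 with adjusted p = 0.0462, and the stage changes on control food kept their values, also with the 6 control arrays alone (AGBE -3.86, adjusted p = 8.8e-07).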

Other observations

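The probe set of UGP, which encodes the enzyme that makes UDP-glucose, stayed at 12.2 to 52.9 in the 12 arrays, and that of Akh, the adipokinetic hormone gene, at 15.4 to 49.6, below the median of every array. Neither was tested.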
